A study of Mus musculus with 6 samples.

Results

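The genes described here encode the T cell receptor complex of CD8 T cells, its CD8 coreceptor, the costimulatory receptors CD28 and ICOS, and the proximal kinases, adaptors, enzymes and inhibitors that carry or limit the receptor signal. They form a list of 37 genes, each read from its brightest probe set by mean signal over all 6 arrays. Only probe sets with a signal over the 40th percentile of the array, on 3 or more arrays, were tested, and 35 of the 37 genes were tested among 12571 in all. Trat1, a transmembrane adaptor of the receptor, had probe sets but none that reached this level, and Lck, the kinase that starts the cascade, had no probe set assigned to it alone in the annotation used and was not analysed here. The cells were Eomes+ and Eomes- CD8 T cells, with 3 arrays for each fraction, all sorted from MCA-205 fibrosarcomas of male C57BL/6 mice with a GFP reporter of the T-box factor Eomes. Every mouse had an antibody to OX40 (250 ug, days 12 and 16) and an antibody to CTLA-4 (200 ug, days 12, 14 and 16) before harvest on day 19. Eomes+ cells were those with GFP and Eomes- cells those without it, so the fractions rest on the reporter and not on the Eomes protein, and both came from treated mice. The study's description gives 3 independent experiments, but no label ties an array to an animal, to pooled animals or to an experiment, so p-values measure only the spread between these RNA samples. The 6 arrays are all the data there are on each gene, and this number limits the precision of every value. Signals are log2 values, so a difference of 1 is a 2-fold difference.

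In T cells, antigen on MHC class I is bound by the receptor's variable chains, and the CD3 and zeta chains carry the signalling motifs. LCK, brought by CD8, phosphorylates these motifs, ZAP-70 docks on them, and the adaptors LAT and SLP-76 then gather PLC-gamma-1, VAV1 and other enzymes that open the calcium, RAS and NF-kappaB branches. Phosphatases, ubiquitin ligases and diacylglycerol kinases damp the same steps, and in tumours these brakes are known to limit CD8 T cells that meet antigen for long periods.

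The sort was checked on Eomes, which had log2 signals of 10.38, 9.86 and 8.38 on the Eomes+ arrays, against 6.85, 6.89 and 5.42 on the Eomes- arrays. The groups did not overlap and the mean was 8.90-fold higher (3.15 log2, SE 0.64), yet Eomes did not pass the fraction test either (limma adjusted p = 1.00), and it passed with the replicate number as a block (adjusted p = 0.0167). Array medians lay between 6.35 and 6.42 log2. Defining CD8 T cell genes (Cd3d, Cd3e, Cd3g, Cd247, Cd8a, Cd8b1 and Cd2) were above the filter level on all 6 arrays. Markers of other cells were also present and varied by replicate number, with tumour and fibroblast markers (19 tested of 21) averaging 9.16, 11.04 and 11.80 log2 in Eomes+ replicates 1, 2 and 3 against 8.97, 10.13 and 11.88 in Eomes- replicates 1, 2 and 3. Macrophage and monocyte markers (16 tested of 18) averaged 8.83, 10.28 and 11.12 log2 in Eomes+ against 8.49, 9.52 and 11.06 in Eomes-. In linear signal the sum of the tumour list ran from 16801 to 91970 in Eomes+ and from 14419 to 100930 in Eomes-, and that of the macrophage list from 17672 to 57242 and from 13953 to 56894. Lum and Cd163 were the members of these lists below the filter level, and no NK or gamma-delta T cell marker reached it (0 of 3 with a probe set). B cell markers (3 tested) averaged 6.06 to 6.40 log2 in Eomes+ and 5.88 to 6.15 in Eomes-, and the 4 CD4 T cell markers averaged 6.67 to 7.04 in Eomes+ and 7.19 to 7.71 in Eomes-. Neutrophil markers (4 tested) averaged 6.74 to 8.96 and 6.36 to 9.47, and endothelial markers (3 tested) 6.14 to 7.79 and 5.88 to 7.49. Dendritic cell and antigen presentation markers (6 tested) averaged 9.71 to 10.97 in Eomes+ and 9.19 to 11.05 in Eomes-. The Gapdh ratio of 3' to 5' signal, a sign of RNA quality, was 1.74 ± 0.17 log2 in Eomes+ and 1.24 ± 0.26 in Eomes- (SD over 3 arrays each), and a two-sided exact permutation test gave p = 0.1, which 3 against 3 arrays cannot go below. The same ratio for Actb was 0.13 ± 0.04 log2 in Eomes+ and 0.05 ± 0.06 in Eomes- (p = 0.2 by the same permutation test).

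Between Eomes+ and Eomes- cells the receptor signalling genes were close to even, with a median difference of -0.06 log2 over the 35 genes, beside -0.02 over all 12571. Both CD8 chains, Cd3g and Icos had lower means in Eomes+ cells and the kinase gene Txk a higher mean, but none of the 35 passed the test (limma with Benjamini-Hochberg adjustment over all genes; smallest adjusted p = 1.00). Between replicate numbers the same genes differed much more. In both fractions nearly all of them were lower on the arrays of replicate number 3, by a median of 1.20 log2 against number 1, and 31 of the 35 passed the test. Fewer T cells in a sample and less RNA of these genes per T cell cannot be told apart in such bulk samples.

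**Figure D1:**
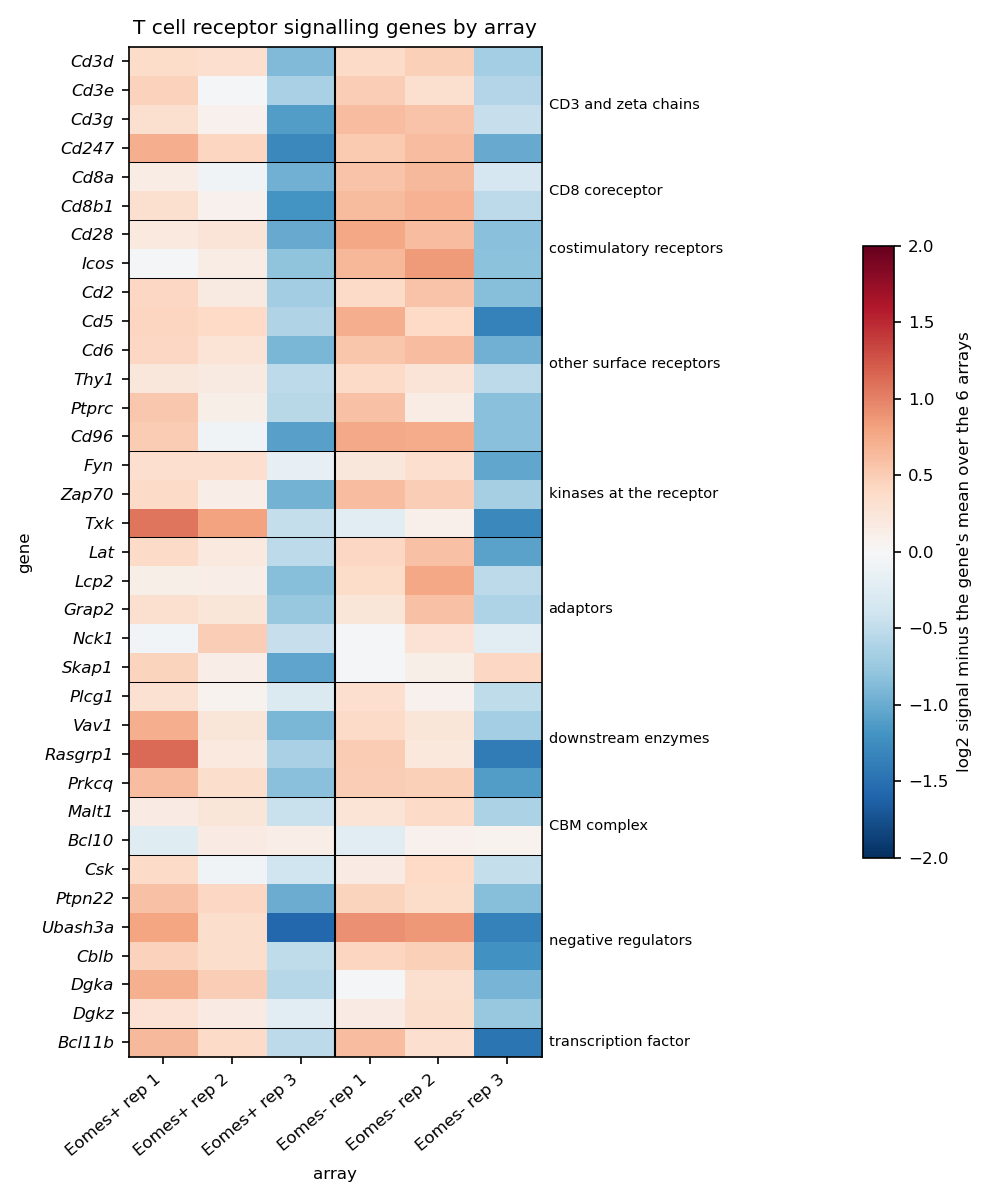
Heat map of the 35 tested genes (rows, grouped by role) on the 6 arrays (columns, Eomes+ left of Eomes-), coloured by log2 signal minus the gene's mean over the 6 arrays. The replicate 3 columns are blue in both fractions for nearly all genes, and Bcl10 varies least between the numbers.

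On their brightest probe sets the invariant chains of the receptor were nearly level between the fractions, apart from Cd3g. Cd3d, which encodes CD3 delta, had log2 signals of 12.99, 12.96 and 11.74 in Eomes+ and 13.01, 13.10 and 11.95 in Eomes-. Cd3e, for CD3 epsilon, had 12.89, 12.40 and 11.78 in Eomes+ and 12.93, 12.76 and 11.84 in Eomes-. For both genes the arrays of the fractions overlapped, and the lowest array of each fraction was number 3. Cd3g, for CD3 gamma, had 12.87, 12.63 and 11.43 in Eomes+ and 13.16, 13.12 and 12.08 in Eomes-, a difference of -0.47 log2 (SE 0.45; adjusted p = 1.00) that was negative at each number (-0.29, -0.48 and -0.65). Cd247, for the zeta chain with its several signalling motifs, had 10.56, 10.26 and 8.55 in Eomes+ and 10.36, 10.45 and 8.84 in Eomes-. On its brightest probe set number 3 was 1.77 log2 below number 1 (SE 0.22, limma F-test over the numbers, adjusted p = 0.00371). This step was larger than that of Cd3d (-1.16, SE 0.092) or Cd3e (-1.10, SE 0.11). The other Cd247 probe sets gave steps of -2.11, -0.55 and -0.39, so this order depends on the probe set. Between the fractions these probe sets differed by -0.45, 0.10 and -0.19 log2, beside -0.09 for the brightest.

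Both chains of the CD8 coreceptor, which binds MHC class I and carries LCK to the receptor, had lower means in Eomes+ cells. Cd8a had log2 signals of 13.05, 12.83 and 11.95 in Eomes+ and 13.48, 13.55 and 12.56 in Eomes-. The difference of the means was the largest negative one of the list (-0.58 log2, SE 0.37; limma adjusted p = 1.00), with differences of -0.43, -0.72 and -0.61 at numbers 1, 2 and 3. Cd8b1 had 12.35, 12.12 and 10.83 in Eomes+ and 12.66, 12.72 and 11.51 in Eomes- (-0.53 log2, SE 0.49; adjusted p = 1.00). For both genes the highest Eomes+ array lay above the lowest Eomes- array, which was number 3, so the groups overlapped. All 5 probe sets of Cd8a had a lower mean in Eomes+, between -0.58 and -0.21 log2.

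The costimulatory receptor genes also had lower means in Eomes+ cells. Icos, whose product is induced on activated T cells, had 11.44, 11.62 and 10.67 log2 in Eomes+ and 12.14, 12.32 and 10.65 in Eomes-, a difference of -0.46 (SE 0.49; adjusted p = 1.00). The Eomes- arrays 1 and 2 lay above every Eomes+ array, whereas on this probe set the number 3 arrays differed by 0.02. The other Icos probe sets gave differences of -0.74 and -0.88 log2, and of -0.47 and -0.68 at number 3. Cd28, the main costimulatory receptor of naive T cells, had 10.48, 10.55 and 9.28 in Eomes+ and 11.07, 10.90 and 9.46 in Eomes-, with differences of -0.59, -0.35 and -0.18 at the 3 numbers. The other Cd28 probe set, of similar mean signal (10.16 against 10.29 log2), gave a difference of only -0.05. Its differences at the 3 numbers were 0.002, -0.03 and -0.13.

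Among the other surface receptors, only Cd96 differed by more than 0.25 log2 between the fractions on its brightest probe set. Cd96, a nectin-family binding receptor of T and NK cells, had 11.64, 11.07 and 10.05 in Eomes+ and 11.89, 11.88 and 10.30 in Eomes- (-0.44 log2, SE 0.57; adjusted p = 1.00). Cd5, a receptor that tunes the strength of the receptor signal, had 11.21, 11.19 and 10.19 in Eomes+ and 11.51, 11.18 and 9.43 in Eomes-, so that its number 3 difference (0.75 log2) was opposite to its number 1 difference (-0.31). Cd2, an adhesion receptor, and Cd6, a relative of CD5, had means within 0.25 log2 of each other between fractions. The same held for Thy1, a surface protein of T cells also made by fibroblasts, and for the brightest probe set of Ptprc. Ptprc encodes the phosphatase CD45 that keeps LCK active. Its other probe set was higher in Eomes+ by 0.66 log2 (0.37, 0.245 and 1.36 at the 3 numbers). On number 3 all 6 genes of this group fell, by 0.83 log2 for Thy1 (SE 0.083, limma F-test adjusted p = 0.00298) to 1.59 for Cd96 (SE 0.18, adjusted p = 0.0036).

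Txk, a TEC-family kinase of T cells, had the largest difference between the fractions of all 35 genes. Its log2 signals were 9.49, 9.22 and 7.94 in Eomes+ and 8.19, 8.51 and 7.12 in Eomes-, a 1.92-fold higher mean (0.94 log2, SE 0.54; limma adjusted p = 1.00, unadjusted p = 0.127). At each number Eomes+ was higher (1.29, 0.71 and 0.82 log2), but the lowest Eomes+ array, number 3, lay below Eomes- arrays 1 and 2. The other kinases were nearer to even: Zap70 had 10.99, 10.74 and 9.67 in Eomes+ and 11.22, 11.10 and 9.94 in Eomes-. Fyn, a Src-family kinase found in many tissues, had 11.49, 11.49 and 10.99 in Eomes+ and 11.39, 11.49 and 10.12 in Eomes-. On this probe set its difference was carried by number 3 (0.87 log2, beside 0.10 and -0.003). The other Fyn probe set gave 0.09, 0.08 and 0.05 at numbers 1, 2 and 3.

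Of the adaptors, Lcp2, which encodes SLP-76, had the largest difference between the fractions. It had 10.52, 10.54 and 9.55 log2 in Eomes+ and 10.77, 11.19 and 9.88 in Eomes- (-0.41, SE 0.42; adjusted p = 1.00), lower at each number. Lat, the membrane scaffold to which SLP-76 is joined, had 11.46, 11.27 and 10.55 in Eomes+ and 11.49, 11.66 and 10.01 in Eomes-, with no common direction over the numbers. Grap2, for the linker GADS between LAT and SLP-76, had 9.45, 9.37 and 8.38 in Eomes+ and 9.37, 9.72 and 8.52 in Eomes-. Nck1, an adaptor to the actin machinery, had no common order of the fractions, at 9.83, 10.37 and 9.41 in Eomes+ and 9.84, 10.17 and 9.66 in Eomes-. Skap1, an adaptor of integrin activation, had 10.96, 10.65 and 9.46 in Eomes+ and 10.49, 10.63 and 10.93 in Eomes-, so its lowest array was Eomes+ 3 and Eomes- 3 was high. The other Skap1 probe sets read 9.10 and 8.75 on Eomes- 3, below their values on Eomes- 1 (10.97 and 9.96). Trat1, below the filter level, had 4.67, 5.25 and 4.91 in Eomes+ and 6.21, 4.61 and 5.35 in Eomes- for its brighter probe set.

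Of the enzymes further down, Rasgrp1, the diacylglycerol-driven RAS activator of T cells, had 11.85, 10.91 and 10.07 log2 in Eomes+ and 11.22, 10.93 and 9.31 in Eomes-. Its difference was 0.46 log2 (SE 0.63; adjusted p = 1.00), present at numbers 1 and 3 (0.63 and 0.76) and not at number 2 (-0.02). The other Rasgrp1 probe sets gave smaller differences of 0.004, 0.05 and 0.10 log2. Plcg1, for PLC-gamma-1, had 12.33, 12.09 and 11.74 in Eomes+ and 12.35, 12.11 and 11.51 in Eomes-, among the smallest steps over the numbers. Prkcq, for protein kinase C theta, and Vav1, an exchange factor that joins SLP-76, averaged 10.59 ± 0.77 and 8.85 ± 0.84 in Eomes+ and 10.49 ± 0.92 and 8.81 ± 0.58 in Eomes- (SD, n = 3 each). Malt1 and Bcl10 encode partners in the complex that links the receptor to NF-kappaB. Malt1 had 10.79, 10.86 and 10.18 in Eomes+ and 10.90, 11.01 and 9.99 in Eomes-, lower on number 3 in both. Bcl10 had 10.38, 10.79 and 10.76 in Eomes+ and 10.42, 10.71 and 10.70 in Eomes-, the only tested gene of the list whose mean was higher on number 3 than on number 1 (0.33 log2, SE 0.16; limma F-test over the numbers, adjusted p = 0.245).

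The negative regulators did not move together between the fractions. Dgka, a diacylglycerol kinase that removes the activator of RASGRP1, had 11.67, 11.45 and 10.39 log2 in Eomes+ and 10.94, 11.29 and 10.04 in Eomes-, higher at each number (0.41, SE 0.44; adjusted p = 1.00). Dgkz, the other diacylglycerol kinase, had 11.97, 11.84 and 11.47 in Eomes+ and 11.84, 12.03 and 10.93 in Eomes-. Cblb, a ubiquitin ligase that restrains activation without costimulation, had 11.69, 11.58 and 10.73 in Eomes+ and 11.66, 11.71 and 10.03 in Eomes-. For both, on these brightest probe sets, the fractions overlapped and Eomes- 3 was lowest. The other probe sets of Dgkz and Cblb were lowest on Eomes+ 3 and lower in Eomes+ at each number. Their differences of means were -0.41 log2 for Dgkz and -0.24 and -0.47 for Cblb. Ptpn22, a phosphatase acting on LCK and ZAP-70, averaged 11.71 ± 0.87 in Eomes+ and 11.69 ± 0.73 in Eomes-, and Csk, the kinase that inactivates LCK, 9.96 ± 0.40 and 10.02 ± 0.46 (SD, n = 3 each). Ubash3a, a suppressor of receptor signalling found mainly in T cells, had 9.08, 8.64 and 6.72 in Eomes+ and 9.21, 9.15 and 6.94 in Eomes-, the lowest array of each fraction again being number 3. Its 2.32 log2 step between numbers 3 and 1 (SE 0.28, limma F-test adjusted p = 0.00386) was the largest of the list on the brightest probe sets. The other Ubash3a probe set had a step of -1.12, and a dimmer Rasgrp1 probe set had one of -2.51. Bcl11b, a transcription factor that maintains T cell identity, had 11.10, 10.83 and 9.93 in Eomes+ and 11.07, 10.78 and 8.99 in Eomes-.

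Over the whole list, 20 genes had a lower and 15 a higher mean in Eomes+ cells, where 52.6% of all genes tested were lower and 47.4% higher. The share of all genes called was 0%, and 0 of 35 members were called. At an unadjusted p under 0.05 there were 0 members beside 3.25% of all genes. No member had all Eomes+ arrays below (0) or above (0) all Eomes- arrays, beside 4.66% and 3.05% of all genes. Read number by number, 11 members were lower in Eomes+ at all 3 numbers (17.3% of all genes) and 3 were higher (14% of all genes). The 11 were Cd3d, Cd3e, Cd3g, Cd8a, Cd8b1, Cd28, Thy1, Cd96, Zap70, Lcp2 and Ubash3a, and the 3 were Txk, Dgka and Bcl11b. Thy1 differed by only -0.001 log2 at number 3, and Bcl11b by 0.03, 0.05 and 0.94 at numbers 1, 2 and 3. No other Bcl11b probe set was higher at all 3 numbers. The labels do not say that a number marks a shared experiment, so these counts are a description. With the number as a block in the fit, 10 members had an unadjusted limma p under 0.05 (10.2% of all genes) and 0 passed after adjustment (0.135% of all genes). Without the block the SE of a difference also takes in the step between numbers. For Cd8a it was 0.37 log2, against 0.078 with the block. Not passing without the block therefore does not show that the fractions are equal.

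**Figure D2:**
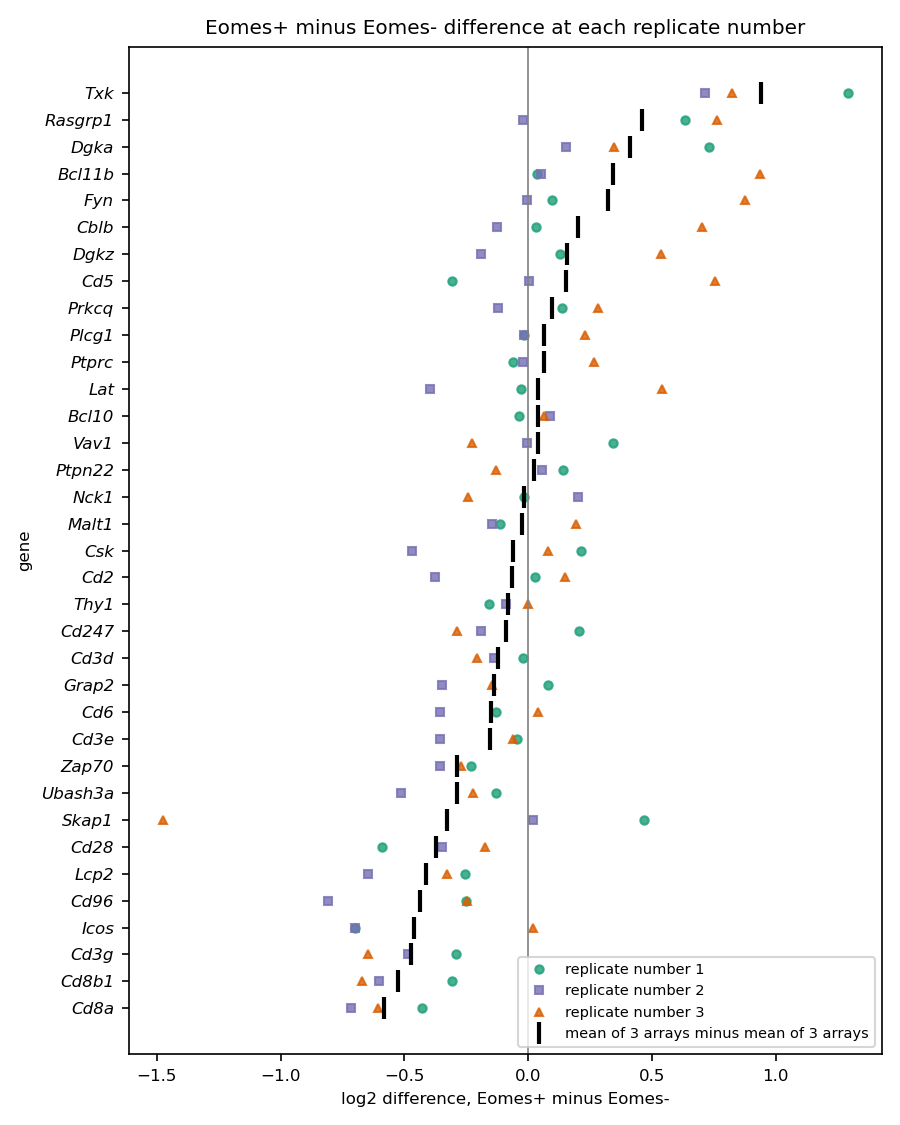
Log2 difference, Eomes+ minus Eomes-, for each of the 35 genes (rows) at replicate numbers 1, 2 and 3 (points) and between the means of 3 arrays (black bars). Txk lies above 0 and Cd8a, Cd8b1 and Cd3g below 0 at all 3 numbers, and most other genes scatter on both sides.

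The list median depended on single arrays. Leaving out array 3 of Eomes+ gave 0.26 log2 and leaving out array 3 of Eomes- gave -0.43, and the median lay between -0.27 and 0.13 without any of the other 4 arrays. The direction held in all 22 alternative settings for 8 genes: Cd3g, Cd8a, Cd8b1, Icos, Cd96 and Lcp2 were lower and Txk and Dgka higher in Eomes+ cells. The other 27 turned in at least 1 setting. A changed filter or variance model and the replicate block left the log2 differences as in the main fit, so no direction could turn there. Cd96 came as close to turning as -0.002 log2. None of the 35 passed the test in any of the 22 settings (0 members).

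Over the replicate numbers the picture was uniform. In a fit with fraction and number as terms, 31 of 35 members passed the limma F-test over the 3 numbers, beside 19.2% of all genes tested. All 31 fell on number 3, where 7.62% of all genes were called and lower than on number 1. Number 3 against number 1 called 31 members, all lower, where 25.2% of all genes were called and 10.6% were called and lower. Number 3 against number 2 called 31, all lower (11.3% of all genes called, 4.97% called and lower), and number 2 against number 1 called 0 (0.358% of all genes in either direction). With the arrays of number 3 left out, 0 members differed between numbers 1 and 2 (1.07% of all genes called; 3 members at an unadjusted p under 0.05). For 33 members both arrays of number 3 lay below the other 4 arrays, as for 20.6% of all genes, the exceptions being Skap1 and Bcl10. For 24 members number 3 was more than 1 log2 below number 1, as for 7.89% of all genes. Not passing were Nck1, Skap1, Csk and Bcl10.

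**Figure D3:**
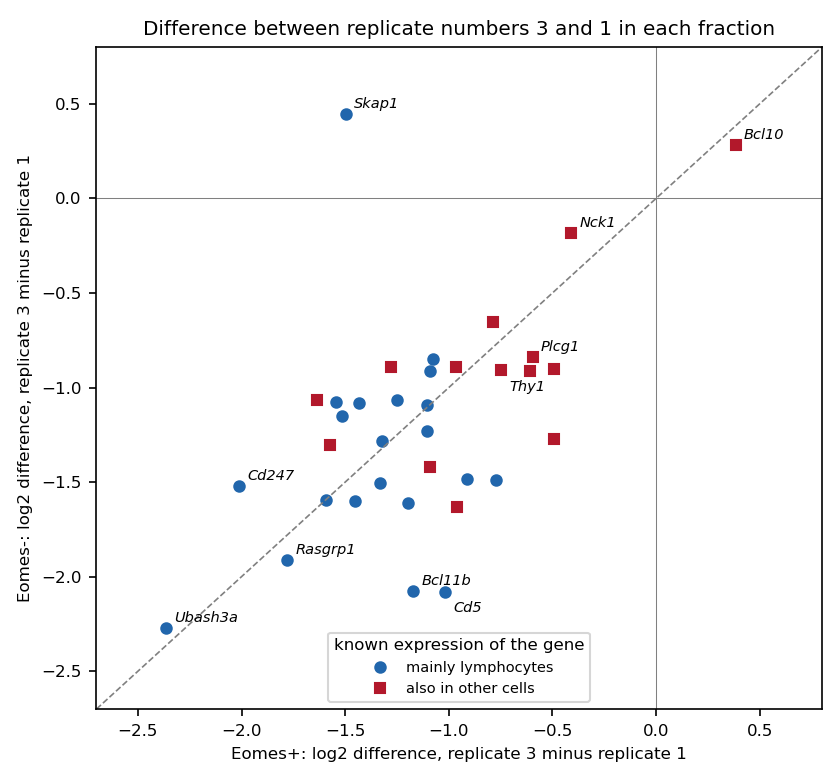
Log2 difference between replicate numbers 3 and 1 in Eomes- (vertical axis) against Eomes+ (horizontal axis) for the 35 genes, marked by whether the gene is known mainly from lymphocytes or also from other cells; the dashed line marks equal values. All points but Bcl10 and Skap1 lie below 0 on both axes, and Ubash3a is lowest in both fractions.

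The median step between numbers 3 and 1 was -1.11 log2 in Eomes+ and -1.15 in Eomes-, beside -0.05 and -0.045 over all genes. Single genes varied more, such as Cd5 (-1.02 in Eomes+ and -2.08 in Eomes-) and the brightest probe set of Fyn (-0.49 and -1.27). With 1 array per fraction and number these differences were not tested. The other Fyn probe set read 11.28 and 10.05 on Eomes+ 1 and 3, and 11.19 and 10.00 on Eomes- 1 and 3. After Ubash3a the largest steps from number 1, on the brightest probe sets, were those of Rasgrp1 (-1.85, SE 0.22), Cd247 (-1.77, SE 0.22), Bcl11b (-1.62, SE 0.25), Cd96 (-1.59, SE 0.18) and Cd5 (-1.55, SE 0.25). All of these passed the limma F-test over the numbers (adjusted p between 0.0036 and 0.00921). The smallest steps on these brightest probe sets belonged to Bcl10 (0.33), Nck1 (-0.30), Skap1 (-0.52), Dgkz (-0.70), Plcg1 (-0.72) and Csk (-0.72). The other Nck1 probe sets had steps of -0.97 and -1.01. The 21 genes known mainly from lymphocytes had a median step of -1.31 log2, and 20 of them passed. The 14 genes also known from fibroblasts, myeloid or other cells had a median of -0.86, and 11 passed. This division was made from general knowledge of the genes, and the difference between the medians was not tested.

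Tumour, fibroblast and macrophage markers moved with the number in the other direction. Of 19 tested tumour and fibroblast markers 18 passed the F-test, all 18 higher on number 3 than on number 1 (median 2.74 log2), and of 16 macrophage and monocyte markers all 16 passed and were higher (median 2.75). Of all genes 11.5% passed and were higher. Between numbers 2 and 1 the medians were 1.59 log2 for the tumour list, 1.25 for the macrophage list and -0.08 for the receptor signalling genes. The CD4 T cell markers had a median step of 0.24 between numbers 3 and 1, with 0 of 4 passing. The part of other cells' RNA in the step of the receptor genes was not tested. Eomes itself was also lowest on number 3 in both fractions.

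**Figure D4:**
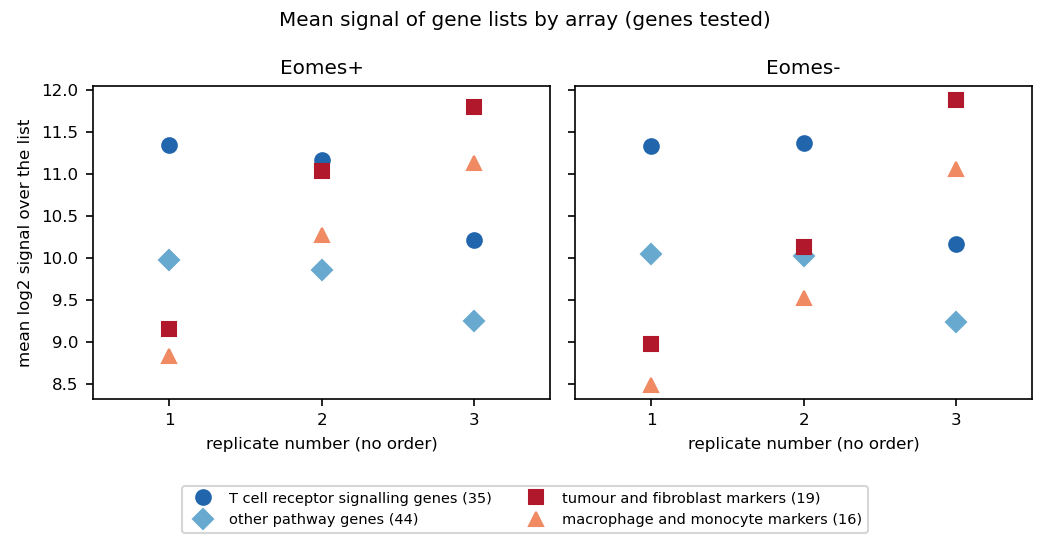
Mean log2 signal of 4 gene lists on each array, Eomes+ in the left panel and Eomes- in the right, by replicate number, with the number of genes tested in brackets. On number 3 the means of the receptor signalling genes and the other pathway genes are lowest and those of the tumour and macrophage markers highest, in both fractions.

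To compare the genes with the receptor itself, each array was centred on its mean of Cd3d, Cd3e, Cd3g and Cd247. This put the median of all genes at 1.26 log2 between numbers 3 and 1 and at 0.19 between the fractions, so it serves only to set members beside the CD3 and zeta chains. On this scale 5 members passed over the numbers, where 80.2% of all genes did, and of these Nck1 and Bcl10 had not passed before centring. Bcl10 (1.65 log2, adjusted p = 0.00102), Nck1 (1.02, adjusted p = 0.0132), Plcg1 (0.60, adjusted p = 0.0117) and Thy1 (0.49, adjusted p = 0.0233) were higher on number 3 relative to the chains, and Ubash3a was lower (-0.998, adjusted p = 0.0262), by the same limma F-test. The other 30 did not pass, and they include Cd3d, Cd3e, Cd3g and Cd247, whose own mean was removed from each array. With these 4 included the list median was 0.12 log2. The Nck1 result depends on its brightest probe set, which had a step of -0.30 before centring. The other Nck1 probe sets had steps of -0.97 and -1.01 before centring. The Ubash3a result also depends on its brightest probe set, with a step of -2.32 before centring. Its other probe set had a step of -1.12, within the -1.77 to -1.10 of the 4 chains, and its Eomes- 3 value lay below the filter level. Between the fractions, relative to the chains, Cd8a was at -0.37 log2 (SE 0.44), Cd8b1 at -0.32 (SE 0.42) and Txk at 1.15 (SE 0.52), with none passing (adjusted p = 1.00 for each).

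Probe sets of a gene often disagreed on the small differences between the fractions and seldom on the step between numbers. The 36 genes with a probe set had 75, of which 72 reached the filter level, and 20 genes had several. In 8 of the 20 all probe sets had the same direction between the fractions (Cd8a, Icos, Lcp2 and Cd28 lower, Fyn, Ptprc, Rasgrp1 and Vav1 higher), and in 12 they were mixed: Bcl10, Bcl11b, Cblb, Cd247, Dgkz, Grap2, Malt1, Nck1, Plcg1, Skap1, Ubash3a and Zap70. The dimmer Grap2 probe set read 8.28, 7.80 and 6.14 log2 in Eomes+ and 6.86, 7.65 and 3.40 in Eomes-. Its value on Eomes- 3 lay below the filter level of 5.70 to 5.72 log2, so the size of its difference is not given, and the brighter one gave -0.14. Cblb ranged from -0.47 to 0.20 and Bcl11b from -0.40 to 0.34. Between numbers 3 and 1, 69 of the 72 probe sets were lower, the 3 others being of Bcl10. The Zap70 and Bcl10 probe sets used are of a kind that can bind transcripts of other genes, and the other Zap70 probe sets were also lower on number 3.

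**Figure D5:**
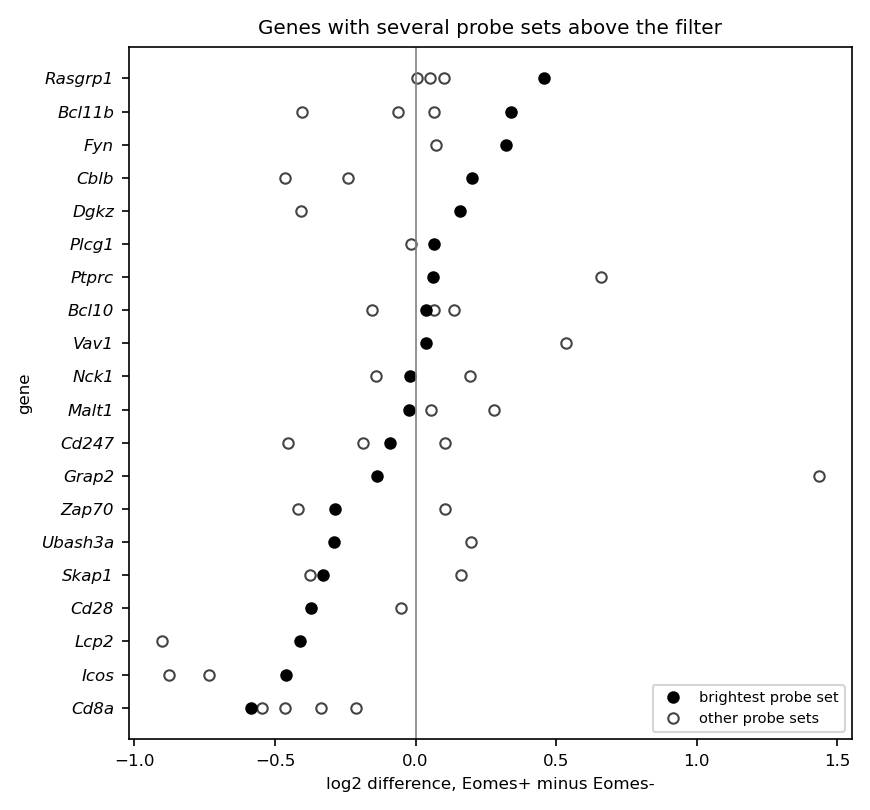
Log2 difference, Eomes+ minus Eomes-, of each probe set above the filter for the 20 genes with several (rows), the brightest filled and the others open. Cd8a, Icos and Lcp2 lie below 0 with every probe set, and the dimmer Grap2 probe set, which stands apart, has 1 Eomes- value below the filter level.

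Other genes of the pathway were described in the same way. Of 54 listed, 44 were tested, with 27 lower and 17 higher means in Eomes+ cells, a median of -0.08 log2 and 0 called. The smallest unadjusted p belonged to Sos1, a RAS exchange factor (-0.60 log2, SE 0.29), Map2k1, which encodes MEK1 (-0.48, SE 0.23), Ptprj, a receptor phosphatase (-0.85, SE 0.48), and Ptpn2, a phosphatase that limits cytokine and receptor signals (0.25, SE 0.15), each with limma adjusted p = 1.00. Over the numbers 19 of the 44 passed, all 19 lower on number 3 (19.2% of all genes passed, and 7.62% passed and were lower). The median step from number 1 was -0.97 log2 over the list, and 37 of the 44 had a lower mean on number 3. Those of smallest p were Ptprcap, for the CD45-associated protein (-1.14 log2, adjusted p = 0.0028), Sh2d2a, for the adaptor TSAd (-1.44, adjusted p = 0.0028), Was, for the actin regulator WASP (-1.65, adjusted p = 0.00306), and Dock2, a RAC exchange factor of leukocytes (-1.34, adjusted p = 0.00316).

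Promoters are shown for the 3 CD3 genes, Cd8a and Txk, because these genes carry the comparisons above: the CD3 genes were nearly level or lower in Eomes+ cells, and Cd8a and Txk had the largest differences in each direction. Sequences are from RefSeq on GRCm38.p6, from 250 bases before to 50 after the gene's start, given 5' to 3' on the gene's own strand, and capitals mark the T-box motif AGGTGT or its reverse complement ACACCT.
Cd3d, chr9:44981536-44981835, plus strand: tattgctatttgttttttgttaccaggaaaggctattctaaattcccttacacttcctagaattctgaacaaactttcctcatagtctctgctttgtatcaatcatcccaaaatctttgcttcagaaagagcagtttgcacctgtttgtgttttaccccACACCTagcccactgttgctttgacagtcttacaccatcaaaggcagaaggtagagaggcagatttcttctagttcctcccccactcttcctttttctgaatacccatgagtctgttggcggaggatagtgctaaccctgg
Cd3e, chr9:45009562-45009861, minus strand: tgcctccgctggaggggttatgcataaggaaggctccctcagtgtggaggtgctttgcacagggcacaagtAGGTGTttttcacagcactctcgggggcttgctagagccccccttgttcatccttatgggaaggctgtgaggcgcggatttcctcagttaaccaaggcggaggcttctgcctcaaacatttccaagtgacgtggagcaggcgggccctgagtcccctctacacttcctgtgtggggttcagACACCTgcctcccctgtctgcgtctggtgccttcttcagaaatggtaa
Cd3g, chr9:44980382-44980681, minus strand: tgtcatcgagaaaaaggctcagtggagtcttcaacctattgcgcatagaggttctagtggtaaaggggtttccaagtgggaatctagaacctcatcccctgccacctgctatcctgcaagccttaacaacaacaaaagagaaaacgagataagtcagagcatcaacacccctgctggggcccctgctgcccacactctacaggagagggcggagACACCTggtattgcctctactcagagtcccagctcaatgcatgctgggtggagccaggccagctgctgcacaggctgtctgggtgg
Cd8a, chr6:71373177-71373476, plus strand: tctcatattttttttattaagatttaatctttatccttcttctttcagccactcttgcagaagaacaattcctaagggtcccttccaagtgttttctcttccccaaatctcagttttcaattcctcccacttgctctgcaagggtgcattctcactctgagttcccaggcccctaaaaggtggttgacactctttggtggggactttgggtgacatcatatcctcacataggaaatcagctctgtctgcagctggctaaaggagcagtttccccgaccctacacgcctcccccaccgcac
Txk, chr5:72752728-72753027, minus strand, 1 of 2 starts in the table: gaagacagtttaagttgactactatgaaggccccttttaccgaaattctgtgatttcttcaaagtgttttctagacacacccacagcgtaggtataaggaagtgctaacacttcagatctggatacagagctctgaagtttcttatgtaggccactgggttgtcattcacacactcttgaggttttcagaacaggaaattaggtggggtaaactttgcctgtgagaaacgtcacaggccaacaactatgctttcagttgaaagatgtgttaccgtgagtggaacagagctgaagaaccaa
The motif was found at position 160 of the Cd3d sequence, positions 72 and 253 of Cd3e and position 215 of Cd3g, and not in the Cd8a or Txk sequences. Of the 37 genes, 29 had a promoter in the table, and 7 of their 41 promoters held the motif on either strand (17.1%), beside 13.7% of all 32851 promoters of this length. The 7 genes were Cd3d, Cd3e, Cd3g, Cd5, Trat1, Plcg1 and Csk. A match is a run of letters and shows no binding.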

How the data were processed

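Per the labels, Trizol was used to extract RNA from the sorted CD8 T cells. The authors deposited log2 signals for 45101 probe sets. The scale was read from the values (1.68 to 14.95), and the submitters' processing notes name MAS5 and Transcriptome Analysis Console with no role or version, so how signals were summarised is unknown. Control probe sets (64) were left out. Probe sets with 1 gene symbol in the platform annotation (34945) were named, leaving 932 with more than 1 symbol and 9160 without any unnamed, with symbols updated through RefSeq. Those over the 40th percentile of the array, on 3 or more arrays, were kept, and the brightest stood for each of 12571 genes.

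The fractions were set against each other with limma 3.58.1 under R 4.3.3 (eBayes with an intensity trend, two-sided). Replicate numbers, which have no order, were compared by an F-test in a fit with fraction and number as terms. Both were adjusted by Benjamini-Hochberg over all genes at 0.05, and both fits were tested on simulated data. Replicate number was no block in the fraction comparison, since no source states one; a check for pairing was also missed. Alternatives covered normalization, centring on the CD3 and zeta chains, a pseudocount of 32, filters, probe set choice, variance models, array weights, a replicate block, a covariate for other cells and left-out arrays. Genes given array by array were Eomes, the CD3, zeta and CD8 chains, and the members of largest difference between fractions or between numbers, of smallest difference between numbers, or with probe sets of opposite direction; a few further members, chosen after their values were seen, are given for their role. The members and lists were chosen with earlier results of these data known.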

Additional observations from a re-analysis of the deposited data

Results flagged for a closer look

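Skap1 stood out because its arrays moved in opposite directions in the 2 fractions by at least 0.3 log2. On its brightest probe set, replicate 3 minus replicate 1 was -1.50 log2 in Eomes+ and 0.45 in Eomes-, and replicate 3 minus replicate 2 was -1.19 in Eomes+ and 0.30 in Eomes-. With 1 array per fraction and number, the difference between these differences was not tested. The other Skap1 probe sets were lower on Eomes- replicate 3 than on Eomes- replicate 1.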

How the results depend on the processing

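None of the 35 receptor signalling genes passed between the fractions in any of 22 alternatives (0 members). The list median, -0.06 log2 in the main fit, changed sign between settings, from -0.43 to 0.26 with arrays or numbers left out. These values lie within the spread between arrays (SD 0.66 log2). That spread includes the step on number 3 and is wide beside the median, so staying within it does not show that the median is stable. Over all genes the fraction comparison called 0, also without any array or number, but 253 with array weights, 8 with tumour and macrophage markers as a covariate and 17 with a replicate block. Over the numbers 23 to 30 members and 1298 to 2161 genes were called with 1 array left out, the gene count being 1298 without Eomes+ replicate 1 and 1300 without Eomes- replicate 3, beside 2409; these fits rest on 5 arrays. Without the intensity trend 18 members and 1432 genes were called. Centring on the CD3 and zeta chains gave 5 members, 10078 genes and a median step of 0.12 log2 between numbers 3 and 1; the 4 genes it centres on are themselves members. The step was -1.25 with median centring and -1.22 to -1.10 with 1 array left out. Numbers 1 and 2 alone, an alternative chosen after seeing the data, called 0 members and 135 genes. All other settings kept the number results within 1.5 times or within the spread.

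Same-numbered arrays had correlations of 0.595, 0.0989 and 0.628 between their deviations from the fraction means, and that of number 2 was under the 0.1 asked of every pair and under the 0.302 of Eomes+ 1 with Eomes- 2, so the numbers were not taken to pair the samples. With the replicate block the member median was the same -0.06 log2, 10 members had an unadjusted p under 0.05 (beside 10.2% of all genes) and 0 passed, the smallest limma adjusted p being 0.0553 for Cd8a (its range over all alternatives was 0.0553 to 1.00).

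Of the member differences between the fractions, 656 kept and 114 turned direction, and the cause was not tested. The 656 include those with a changed filter or variance model or the replicate block, which left the log2 differences unchanged. With quantile normalization the turned differences, in log2, were Nck1 0.021 and Malt1 0.012. Centred on the CD3 and zeta chains the turned differences, in log2, were Cd3d 0.088, Cd3e 0.055, Cd247 0.12, Cd2 0.14, Cd6 0.061, Thy1 0.13, Grap2 0.073, Nck1 0.19, Malt1 0.19 and Csk 0.15. With the mean of probe sets the turned differences, in log2, were Grap2 0.65, Nck1 0.012, Malt1 0.10, Cblb -0.17, Dgkz -0.13 and Bcl11b -0.016. With array weights the turned differences, in log2, were Cd5 -0.071, Ptprc -0.059, Lat -0.38, Nck1 0.094, Plcg1 -0.033, Vav1 -0.056, Prkcq -0.17, Ptpn22 -0.041, Cblb -0.14 and Dgkz -0.16. With the covariate for other cells the turned differences, in log2, were Cd3d 0.030, Cd247 0.14, Cd2 0.093, Cd6 0.042, Thy1 0.028, Nck1 0.013, Malt1 0.079, Bcl10 -0.0085, Csk 0.043 and Ubash3a 0.021. With 1 array or both arrays of a number left out, the ranges of the genes that turned were Cd3d -0.49 to 0.29, Cd3e -0.49 to 0.13, Cd247 -0.61 to 0.53, Cd28 -0.88 to 0.040, Cd2 -0.51 to 0.26, Cd5 -0.49 to 0.55, Cd6 -0.66 to 0.27, Thy1 -0.37 to 0.16, Ptprc -0.34 to 0.37, Fyn -0.12 to 0.57, Zap70 -0.69 to 0.11, Lat -0.48 to 0.34, Grap2 -0.48 to 0.21, Nck1 -0.27 to 0.21, Skap1 -0.73 to 0.24, Plcg1 -0.18 to 0.25, Vav1 -0.31 to 0.50, Rasgrp1 -0.13 to 0.89, Prkcq -0.43 to 0.54, Malt1 -0.35 to 0.19, Bcl10 -0.058 to 0.17, Csk -0.32 to 0.15, Ptpn22 -0.40 to 0.52, Ubash3a -1.04 to 0.43, Cblb -0.35 to 0.50, Dgkz -0.18 to 0.37 and Bcl11b -0.30 to 0.73. Signals below the filter level limit Trat1 and the dimmer probe sets of some members, among them Grap2 and Lcp2.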
